A study of Mus musculus with 48 samples.

Results

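Kruppel-like factors are transcription factors that bind GC-rich and CACCC sequences in DNA. The genes described here were the 10 members of the family named Klf2, Klf3, Klf4, Klf5, Klf6, Klf7, Klf9, Klf10, Klf11 and Klf13, taken by symbol out of the 47480 gene symbols in the deposited count tables, and all 10 were found. They were measured by RNA sequencing in 48 libraries of C2C12 cells, an established line of mouse myoblasts that fuse into multinucleated muscle cells when serum is lowered. The 12 groups held 4 libraries each: stretched and non-stretched cells after 1 h, after 3 h and after 6 h, as proliferating myoblasts and as cells differentiated in horse serum. Stretched cells were deformed cyclically and in all directions of the plane on the collagen-coated, flexible bottom of a Flexcell plate, and non-stretched cells stood on the same kind of plate. All groups were of 1 cell line grown as a flat culture, which limits them as a model of muscle.

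The myoblasts came from 2 experiments, B27 (replicates 7 and 8) and B31 (replicates 9 and 10), and the differentiated cells from experiments B25 (replicates 7 and 8) and B28 (replicates 9 and 10). The stretched differentiated cells at 1 h were an exception, with replicates 4, 7, 8 and 9, of which replicate 4 was the only library of its experiment, B17. In the other groups each experiment gave 2 separate samples, so 4 libraries stand for only 2 experiments. The p-values measure the spread over the libraries of a group, within and between experiments, part of which may be technical. The labels give the molecule as nuclear RNA. The study's methods describe RNA extracted from washed cells and a kit for mRNA, without naming an isolation of nuclei. The levels are therefore taken as mRNA of whole cells. Libraries held between 48447318 and 77080730 counts, and no 2 libraries of a group agreed within sampling noise. The stages matched their labels: the summed level of 6 muscle differentiation markers (Myog, Mymk, Myh3, Ckm, Acta1 and Tnnt1) lay between 4.50 and 13.3 CPM (counts scaled to a common library total) in myoblasts and between 9261 and 11450 CPM in differentiated cells, and that of 5 proliferating cell markers (Mki67, Top2a, Ccnb1, Cdk1 and Ccna2) between 1657 and 2047 CPM and between 243 and 693 CPM. In these bulk samples, a change in the number of cells of a kind and a change in RNA per cell cannot be told apart.

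As background, each Kruppel-like factor ends in 3 zinc fingers, which contact DNA, and the stretch before them decides which partner proteins are brought to a promoter. Klf2, Klf4, Klf5, Klf6 and Klf7 are known mainly as activators that recruit acetyltransferases. Klf3 is known as a repressor that binds CtBP proteins, and Klf9, Klf10, Klf11 and Klf13 as repressors that bind the Sin3a co-repressor. Klf2 is known to respond to fluid shear in endothelium through the kinase ERK5 and MEF2 factors, Klf10 and Klf11 are early genes of TGF-beta signaling, Klf4 and Klf6 are early response genes of many cell types, and Klf3 and Klf5 are known regulators of muscle genes during myogenesis.

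The zinc fingers show which members are most alike, and the results follow these pairs. In GENCODE coding sequences (release M21, mm10), each member held 3 fingers in a stretch of 81 residues encoded by 243 bases, with between 1 and 39 residues after it. Identity of the translated stretch was 95.1% between Klf6 and Klf7, 91.4% between Klf2 and Klf4, 86.4% between Klf10 and Klf11, and 81.5% between Klf9 and Klf13. Klf5 was 86.4% identical to both Klf3 and Klf7, against 60.5% for Klf6 and Klf9, the least alike. At the level of bases the pairs were less alike, with 81.1% for Klf6 and Klf7, 78.2% for Klf2 and Klf4, 76.1% for Klf10 and Klf11 and 72.8% for Klf9 and Klf13. The coding sequences of the last finger (63 bases) are printed for these 4 pairs because they show what a sequencing read has to separate. Capitals mark the bases that differ within a pair, 11 each for Klf2 with Klf4 and Klf6 with Klf7 and 14 each for Klf9 with Klf13 and Klf10 with Klf11.
Klf2: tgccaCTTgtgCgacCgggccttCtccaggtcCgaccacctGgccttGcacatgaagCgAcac
Klf4: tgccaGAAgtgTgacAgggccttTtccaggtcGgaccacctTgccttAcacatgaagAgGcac
Klf6: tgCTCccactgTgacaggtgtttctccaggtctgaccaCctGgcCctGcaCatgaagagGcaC
Klf7: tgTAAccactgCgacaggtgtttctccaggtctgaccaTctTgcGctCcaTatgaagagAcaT
Klf9: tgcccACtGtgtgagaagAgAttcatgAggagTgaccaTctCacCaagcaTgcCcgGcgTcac
Klf13: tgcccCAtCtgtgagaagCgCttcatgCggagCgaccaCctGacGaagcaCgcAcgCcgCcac
Klf10: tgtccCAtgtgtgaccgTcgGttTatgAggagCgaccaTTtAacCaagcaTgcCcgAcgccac
Klf11: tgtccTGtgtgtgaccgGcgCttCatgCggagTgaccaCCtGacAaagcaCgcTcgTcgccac

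**Figure D1:**
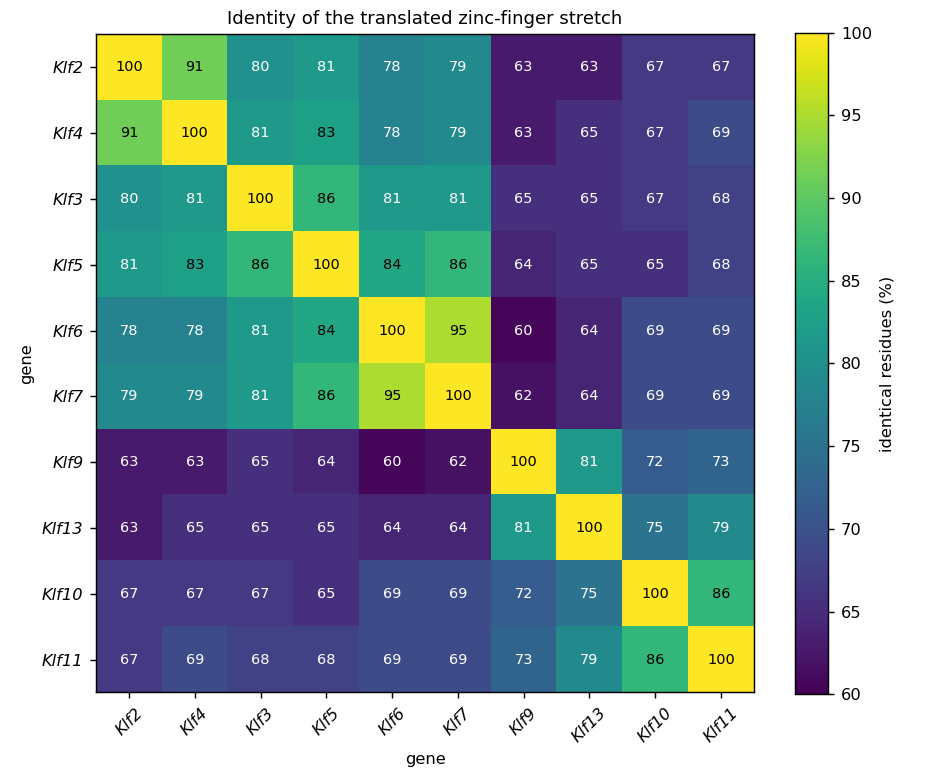
Identical residues (%) in the 81-residue zinc-finger stretch of each pair of the 10 members, with both axes listing the genes and the color scale running from 60% to 100%. Klf6 and Klf7 are the most alike at 95.1%, followed by Klf2 and Klf4 at 91.4%, and Klf9, Klf10, Klf11 and Klf13 are between 71.6% and 86.4% alike among themselves and at most 69.1% alike to the other members.

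Little sequence was shared between members. At most 2.002% of the 31-base stretches of a member's transcripts (Klf4) were found in any other gene and at most 0.0534% (Klf13) in another member. The genes lie on different chromosomes: Klf7 at chr1:64029447-64122282, Klf4 at chr4:55527143-55532466, Klf3 at chr5:64803388-64832901, Klf13 at chr7:63886351-63938915, Klf2 at chr8:72319033-72321656, Klf11 at chr12:24651274-24662789, Klf6 at chr13:5861482-5870394, Klf5 at chr14:99298691-99315036, Klf10 at chr15:38291463-38300706 and Klf9 at chr19:23141226-23168134 (mm10). Klf4, Klf7, Klf10 and Klf13 are on the minus strand. Exons of Klf3 overlap 1 annotated gene of the opposite strand (Gm20033) and those of Klf7 overlap 2 (Gm13748 and Gm26649). The libraries were stranded, but whether the counting used the strand is not given in the sources used here, so these 2 genes may hold reads of their partners.

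Promoters of 8 members were in the RefSeq table (GRCm38.p6, 250 bases before to 50 bases after a transcript start), and Klf5 and Klf10 were not. Searched on both strands, the GC box (GGGCGG), which zinc fingers of this family can bind, was in 7 of the 8 promoters and in 35.7% of all 32851 promoters of that length. CACCC was in 5 of 8 and in 57.5% of all, and CCAAT in 4 of 8 (Klf6, Klf9, Klf11 and Klf13) and in 37.4% of all. The MEF2 site was in Klf2 alone among the 8 and in 0.557% of all promoters. No match was found in the 8 promoters for the CArG box (1.63% of all), the palindromic cyclic AMP response element (1.79%), the AP-1 site (TGANTCA with C or G at N, 5.2%) or TATAAA (13.6%). The parts before the earliest annotated start are printed for Klf2, Klf6 and Klf11, the members with the MEF2 site and with the largest stretch effects. Capitals mark MEF2 sites, GC boxes and CCAAT on either strand, and CACCC is not marked.
Klf2, chr8:72318812-72319032, plus strand: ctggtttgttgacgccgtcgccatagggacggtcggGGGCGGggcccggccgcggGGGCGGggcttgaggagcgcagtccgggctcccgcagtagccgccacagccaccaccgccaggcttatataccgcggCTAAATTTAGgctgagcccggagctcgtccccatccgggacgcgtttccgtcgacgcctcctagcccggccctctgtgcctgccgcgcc
Klf6, chr13:5861239-5861481, plus strand: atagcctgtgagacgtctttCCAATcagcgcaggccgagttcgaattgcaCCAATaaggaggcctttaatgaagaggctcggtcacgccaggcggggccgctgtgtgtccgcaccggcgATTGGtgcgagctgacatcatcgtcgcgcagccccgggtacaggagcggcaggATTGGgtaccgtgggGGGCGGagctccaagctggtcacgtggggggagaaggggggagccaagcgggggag
Klf11, chr12:24651121-24651273, plus strand: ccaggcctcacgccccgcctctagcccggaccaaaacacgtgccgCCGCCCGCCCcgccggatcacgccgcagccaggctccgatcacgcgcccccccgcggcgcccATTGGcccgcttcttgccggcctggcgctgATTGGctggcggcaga
The MEF2 site of Klf2 lies between 118 and 109 bases before the RefSeq start (positions -118 to -109), after the pair of GC boxes. The Klf6 stretch holds 4 CCAAT boxes and 1 GC box. The Klf11 stretch holds 2 overlapping GC boxes and 2 CCAAT boxes, all on the minus strand.

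The question of the design was whether stretching changed gene expression at each time in each stage. In what follows, a gene "rose" or "fell" when the Benjamini-Hochberg adjusted p-value of edgeR's quasi-likelihood test, taken over all genes tested, was under 0.05. A second limit asked for a 1.5-fold change as well, which is 0.58 on the log2 scale, up or down. All 10 members passed the filter on low counts in every comparison, without regard to group. Of the 60 comparisons of a member at a time in a stage, 25 passed the adjusted p-value, 16 with a rise and 9 with a fall, and none also reached a 1.5-fold change.

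In myoblasts, stretching for 1 h raised Klf6, Klf11 and Klf5 and lowered Klf10, Klf3 and Klf7, so that 3 of 10 members rose and 3 fell, where 1.67% of all genes tested rose and 4.24% fell. At 3 h 7 of 10 rose (16% of all genes) and only Klf11 fell (15.8%), and at 6 h Klf2 and Klf4 rose (14.1%) and Klf11 and Klf7 fell (13%). At 1 h in differentiated cells the count was 0 in the reported edgeR fit, where 0.193% of genes rose and 0.47% fell. It was 2 by DESeq2, which called 2.11% of all genes there. At 3 h Klf4, Klf13 and Klf6 rose (10.8% of all genes) and Klf11 fell (11.4%), and at 6 h Klf6 rose (11.5%) and Klf9 and Klf10 fell (10.8%).

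With the 1.5-fold limit added, the count of members was 0 in each of the 6 comparisons, against 1.25%, 1.71% and 2.17% of all genes in myoblasts, in the order of the times, and 0.27%, 1.63% and 2.04% in differentiated cells. By DESeq2 the count with the fold limit was 1 in differentiated cells at 1 h (Klf6), where 0.631% of all genes passed by DESeq2. It was 0 in the other 5, where DESeq2 called 1.29%, 1.24% and 1.79% of all genes in myoblasts and 1.22% and 1.71% in differentiated cells at the later times. At an unadjusted p under 0.05, edgeR gave 9, 8 and 7 members in myoblasts, beside 19%, 41.5% and 38.9% of all genes, and 4, 6 and 4 in differentiated cells, beside 8.92%, 34.9% and 35.8%. The median log2 fold change of the members lay between -0.04 and 0.13 over the 6 comparisons, beside a median within 0.01 of 0 for all genes. CPM ranges of the stretched and non-stretched libraries did not overlap for 7, 6 and 4 members in myoblasts, where this held for 13.3%, 30.8% and 28.7% of all genes, and for 4, 3 and 3 members in differentiated cells, where it held for 6.37%, 25.9% and 26.4%.

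**Figure D2:**
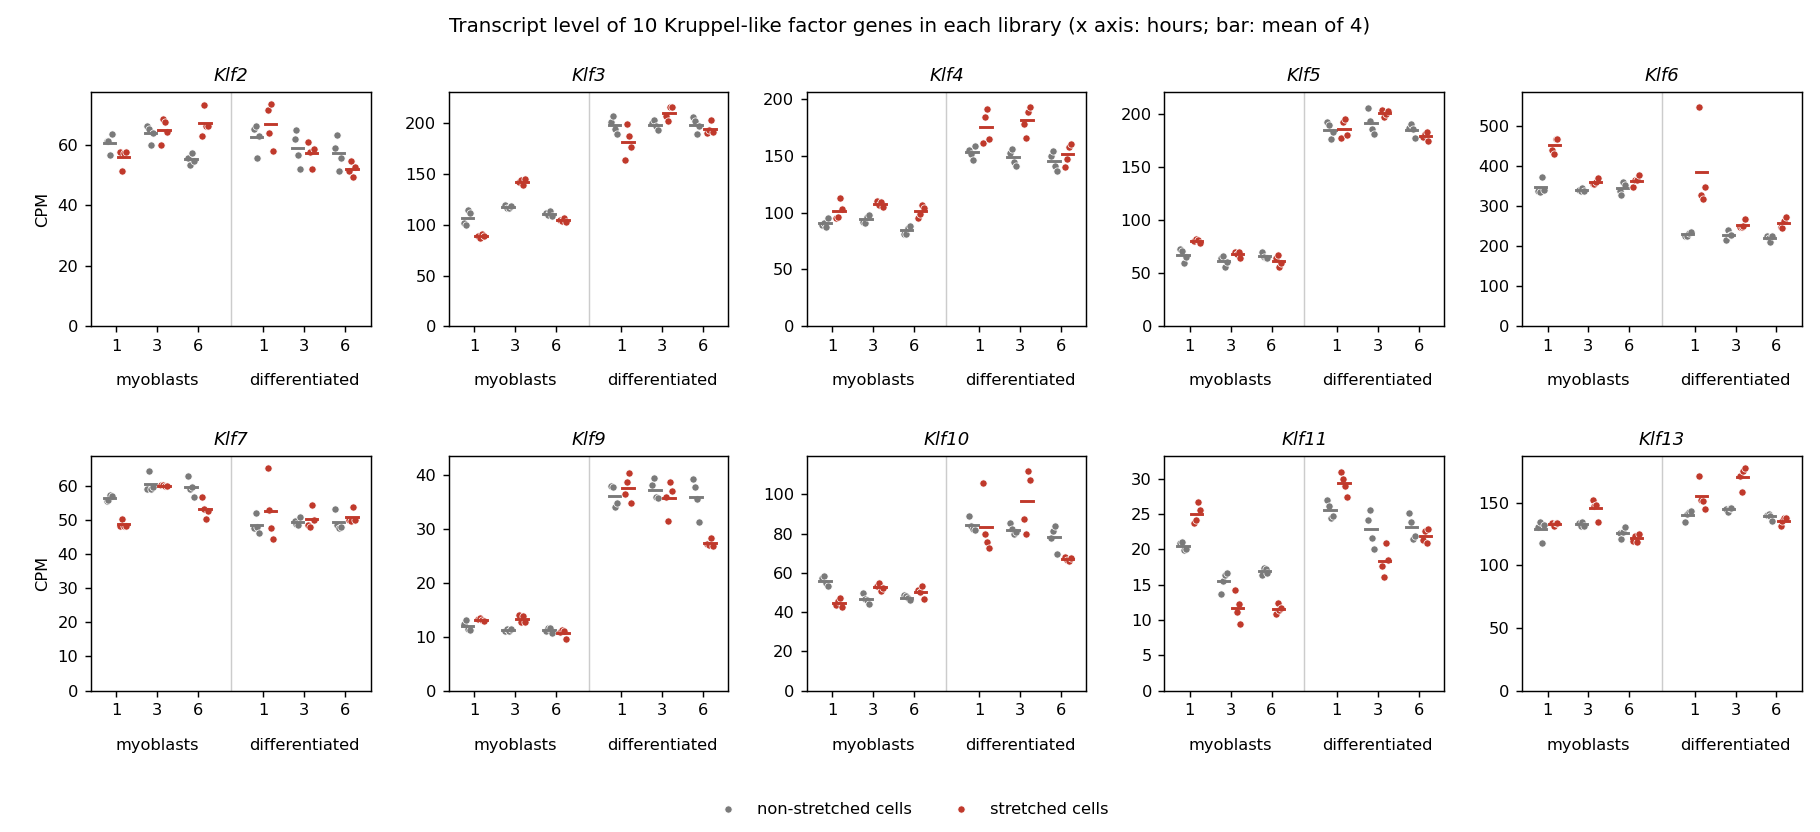
Level of each member (CPM, linear axis from 0) in the 48 libraries, by time in hours in myoblasts (left of each panel) and differentiated cells (right), with non-stretched cells in gray, stretched cells in red and a bar at the mean of the 4 libraries of a group. Klf6 is highest at 1 h of stretching in both stages with 1 differentiated library at 546 CPM, Klf11 in stretched cells is above the non-stretched libraries at 1 h and mostly below them at 3 h, and Klf9 and Klf5 are far higher in differentiated cells.

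Klf6, an early response activator, had the largest fold changes at 1 h in both stages. In myoblasts at 1 h its level was 440, 429, 468 and 468 CPM in stretched replicates 7, 8, 9 and 10 and 338, 334, 372 and 339 CPM in the non-stretched ones, with no overlap. The mean was 451 ± 19.7 CPM against 346 ± 17.7 CPM (SD, n = 4 each), a 1.30-fold rise (log2 0.38, SE 0.04, edgeR adjusted p = 3.1e-04). The log2 difference was 0.37 within experiment B27 and 0.40 within B31. At 3 h the difference had shrunk to 1.05-fold (359 ± 7.95 against 339 ± 3.58 CPM, SD, n = 4, adjusted p = 0.034 by edgeR), and at 6 h it was 1.07-fold (edgeR adjusted p = 0.056). The 3 h rise was the least secure, since it passed in 4 of 7 other settings and in 3 of the 8 fits without 1 library, with an adjusted p of 0.122 and 0.0799 when stretched replicate 10 or 9 was left out and 0.0548, 0.0840 and 0.0796 when non-stretched replicate 7, 8 or 10 was (edgeR).

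In differentiated cells at 1 h Klf6 was at 546, 328, 317 and 347 CPM in stretched replicates 4, 7, 8 and 9 and at 224, 226, 232 and 235 CPM in non-stretched replicates 7, 8, 9 and 10. All stretched libraries were above all non-stretched ones, and replicate 4 stood apart from the other stretched ones. With it, the fold change was 1.68 (log2 0.75, SE 0.15) and the adjusted p 0.069 (edgeR), and without it the fold change was 1.44 (log2 0.53, SE 0.04) and the adjusted p 4.7e-04. The adjusted p-value was passed in 5 of 7 other settings, among them the fit on all 24 differentiated libraries. Of the 8 fits without 1 library, it was passed in 1, that without replicate 4. Within experiments the log2 difference was 0.52 in B25 and, with 1 stretched library, 0.57 in B28. The rise then stood at 1.11-fold at 3 h (253 ± 10.2 against 227 ± 9.58 CPM, SD, n = 4, edgeR adjusted p = 0.016) and 1.17-fold at 6 h (257 ± 12.1 against 220 ± 6.36 CPM, adjusted p = 0.0042). Both of these passed in each fit without 1 library but not with the spread estimated from all 24 differentiated libraries (edgeR adjusted p = 0.35 and 0.14).

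Klf7, its closest relative in the fingers, went the other way in myoblasts at 1 h. There it was at 48.2, 50.2, 48.4 and 48.2 CPM in stretched replicates 7 to 10 and at 55.7, 55.8, 57.3 and 57.1 CPM in the non-stretched ones, which did not overlap. It fell 1.16-fold (log2 -0.21, SE 0.03, edgeR adjusted p = 0.0019), and the log2 difference was -0.18 within B27 and -0.24 within B31. At 3 h the means were 60.1 ± 0.105 and 60.5 ± 2.57 CPM (SD, n = 4). At 6 h it fell 1.11-fold (53.3 ± 2.65 against 59.6 ± 2.56 CPM, edgeR adjusted p = 0.028), a call lost without non-stretched replicate 7, 8 or 9 (adjusted p = 0.0872, 0.0604 and 0.0590) or stretched replicate 9 or 10 (0.0752 and 0.0608). In differentiated cells Klf7 passed at no time, with log2 fold changes of 0.12, 0.02 and 0.04 at 1 h, 3 h and 6 h.

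Klf11, a Sin3a-binding repressor, rose and then fell in myoblasts. In myoblasts at 1 h it was at 23.7, 24.1, 26.7 and 25.6 CPM in stretched replicates 7 to 10 and at 20.9, 21.0, 19.8 and 20.1 CPM in the non-stretched ones, a 1.23-fold rise without overlap (log2 0.29, SE 0.04, edgeR adjusted p = 0.0024). At 3 h the stretched libraries had dropped to 14.3, 11.1, 12.2 and 9.42 CPM, and the non-stretched ones were at 13.6, 15.5, 16.3 and 16.7 CPM. Stretched replicate 7 was above non-stretched replicate 7 and the groups otherwise did not overlap, for a 1.33-fold fall (log2 -0.41, SE 0.10, edgeR adjusted p = 0.0072) that measured -0.21 within B27 and -0.62 within B31. At 6 h it fell 1.44-fold, from 16.9 ± 0.488 to 11.6 ± 0.633 CPM (SD, n = 4, log2 -0.52, SE 0.05, edgeR adjusted p = 5.2e-05), the largest fall of any member, with log2 differences of -0.54 and -0.55 in the 2 experiments. The non-stretched mean of Klf11 itself went from 20.4 CPM at 1 h to 15.5 CPM at 3 h and 16.9 CPM at 6 h.

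The same gene in differentiated cells was at 30.9, 29.9, 29.0 and 27.4 CPM in stretched replicates 4, 7, 8 and 9 at 1 h and at 26.9, 26.0, 24.4 and 24.7 CPM in the non-stretched ones. These libraries did not overlap, but the adjusted p was 0.16 (edgeR, log2 0.20, SE 0.05). At 3 h Klf11 fell 1.24-fold (18.3 ± 1.995 against 22.8 ± 2.44 CPM, SD, n = 4, edgeR adjusted p = 0.027), with a log2 difference of -0.56 within B25 and -0.08 within B28. That call was lost without non-stretched replicate 7 or 8 (adjusted p = 0.0696 and 0.0790) or stretched replicate 7, 8 or 10 (0.0754, 0.0613 and 0.0613, edgeR). At 6 h the means were 21.9 ± 0.984 and 23.1 ± 1.75 CPM (SD, n = 4, log2 -0.08, edgeR adjusted p = 0.35).

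Klf10, the TGF-beta inducible early gene closest to Klf11, fell and then rose in myoblasts. At 1 h it was at 43.7, 45.4, 47.3 and 42.8 CPM in stretched replicates 7 to 10 and at 57.4, 58.4, 54.8 and 53.5 CPM in the non-stretched ones, a 1.25-fold fall without overlap (log2 -0.32, SE 0.04, edgeR adjusted p = 9.6e-04). At 3 h it rose 1.12-fold (52.8 ± 1.57 against 46.6 ± 2.23 CPM, SD, n = 4, edgeR adjusted p = 0.0020), and at 6 h it did not pass (log2 0.10, adjusted p = 0.091). The non-stretched mean itself went from 56.0 CPM at 1 h to 46.6 CPM at 3 h and 47.4 CPM at 6 h. The stretched mean went from 44.8 to 52.8 and 50.3 CPM, so its 3 h level was under the non-stretched level of 1 h. At 3 h in differentiated cells stretched replicates 7 to 10 were at 87.6, 79.8, 112 and 107 CPM and non-stretched ones at 85.3, 82.2, 79.6 and 80.8 CPM. The high stretched libraries were those of B28, where the log2 difference was 0.45, while it was -0.00 within B25, and the comparison over both did not pass (log2 0.24, edgeR adjusted p = 0.086). At 6 h Klf10 fell 1.17-fold (67.1 ± 0.979 against 78.3 ± 6.15 CPM, SD, n = 4, edgeR adjusted p = 0.010), by -0.24 and -0.19 on the log2 scale in the 2 experiments. With the spread taken from all 24 differentiated libraries the adjusted p of that fall was 0.11.

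The mean of Klf4 was higher in stretched cells in all 6 comparisons, and it rose in 3 of them. In myoblasts at 6 h it was at 95.2, 98.6, 107 and 104 CPM in stretched replicates 7 to 10 and at 81.0, 81.0, 86.4 and 88.5 CPM in the non-stretched ones, a 1.22-fold rise without overlap (log2 0.28, SE 0.04, edgeR adjusted p = 8.4e-04) of 0.26 within B27 and 0.27 within B31. At 3 h it rose 1.13-fold (108 ± 2.65 against 94.2 ± 3.27 CPM, SD, n = 4, edgeR adjusted p = 7.1e-04). At 3 h in differentiated cells it was at 178, 165, 188 and 193 CPM in stretched replicates 7 to 10 and at 152, 156, 144 and 141 CPM in the non-stretched ones, a 1.22-fold rise (log2 0.29, SE 0.05, edgeR adjusted p = 0.0025). The groups did not overlap, and the difference was 0.15 within B25 and 0.42 within B28 on the log2 scale. The 3 comparisons that did not pass had log2 fold changes of 0.16 (myoblasts, 1 h), 0.20 (differentiated cells, 1 h) and 0.06 (differentiated cells, 6 h), the last of which was -0.08 within B25 and 0.20 within B28.

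Klf2, the shear-responsive relative of Klf4, passed in a single comparison. In myoblasts at 6 h it was at 63.0, 73.3, 66.1 and 66.3 CPM in stretched replicates 7 to 10 and at 55.7, 53.3, 57.4 and 54.5 CPM in the non-stretched ones, which did not overlap. It rose 1.23-fold (log2 0.30, SE 0.04, edgeR adjusted p = 5.2e-04), by 0.32 within B27 and 0.24 within B31. Its log2 fold change was -0.12 at 1 h and 0.01 at 3 h in myoblasts and 0.10, -0.04 and -0.14 at 1 h, 3 h and 6 h in differentiated cells, with adjusted p-values of 0.098 or more (edgeR).

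Klf9, which is also known as a target of glucocorticoid and thyroid hormone, had the lowest level per length in myoblasts. There it rose at 3 h, with 13.9, 12.7, 13.9 and 12.7 CPM in stretched replicates 7 to 10 and 11.1, 11.5, 10.95 and 11.3 CPM in the non-stretched ones (1.18-fold, log2 0.23, SE 0.05, edgeR adjusted p = 0.0023). These groups did not overlap. At 6 h in differentiated cells it fell, with 27.2, 27.1, 28.3 and 26.8 CPM in stretched replicates 7 to 10 and 39.2, 37.7, 35.5 and 31.2 CPM in the non-stretched ones. The groups did not overlap, the fall was 1.31-fold (log2 -0.39, SE 0.06, edgeR adjusted p = 0.0020), and it measured -0.50 within B25 and -0.27 within B28. At the other times its log2 fold changes lay between -0.06 and 0.13.

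Klf13, the other member of this pair, rose at 3 h in both stages. In differentiated cells it was at 171, 159, 175 and 178 CPM in stretched replicates 7 to 10 and at 145, 143, 146 and 146 CPM in the non-stretched ones, a 1.18-fold rise without overlap (log2 0.24, SE 0.04, edgeR adjusted p = 0.0015) of 0.19 within B25 and 0.27 within B28. In myoblasts the rise was 1.09-fold (146 ± 7.61 against 133 ± 1.66 CPM, SD, n = 4, edgeR adjusted p = 0.011). The other log2 fold changes of Klf13 were 0.05 and -0.03 in myoblasts at 1 h and 6 h and 0.15 and -0.04 in differentiated cells.

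Klf3, the CtBP-binding repressor, fell and then rose in myoblasts. At 1 h it was at 89.2, 86.8, 90.4 and 88.6 CPM in stretched replicates 7 to 10 and at 101, 99.4, 114 and 112 CPM in the non-stretched ones, a 1.204-fold fall (log2 -0.27, SE 0.04, edgeR adjusted p = 0.0048). At 3 h it was at 142, 144, 139 and 144 CPM in the stretched and 119, 117, 116 and 118 CPM in the non-stretched libraries, a 1.203-fold rise (log2 0.27, SE 0.02, edgeR adjusted p = 6.6e-06). The groups overlapped at neither time, and the log2 difference was -0.19 and -0.34 in the 2 experiments at 1 h and 0.28 and 0.27 at 3 h. At 6 h the log2 fold change was -0.07 (edgeR adjusted p = 0.096), and in differentiated cells it was -0.12, 0.09 and -0.03 at 1 h, 3 h and 6 h, none of which passed.

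Klf5, an activator expressed in muscle precursors, rose in myoblasts at 1 h from 67.3 ± 5.95 to 80.5 ± 1.62 CPM (SD, n = 4, 1.195-fold, log2 0.26, SE 0.06, edgeR adjusted p = 0.020). The 4 stretched libraries lay between 78.3 and 82.1 CPM and the non-stretched ones between 59.7 and 73.0 CPM, without overlap. At 3 h it rose 1.09-fold (edgeR adjusted p = 0.035), with overlapping groups. The 1 h rise had an adjusted p of 0.0636 when non-stretched replicate 10 was left out and 0.0608 when stretched replicate 9 was. The 3 h rise had one between 0.0749 and 0.101 without stretched replicate 7, 8 or 9 or non-stretched replicate 9 or 10, and of 0.12 with the spread taken from all 24 myoblast libraries (edgeR). At 6 h in myoblasts the log2 fold change of Klf5 was -0.07, and in differentiated cells its values were 0.01, 0.07 and -0.05 at 1 h, 3 h and 6 h.

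**Figure D3:**
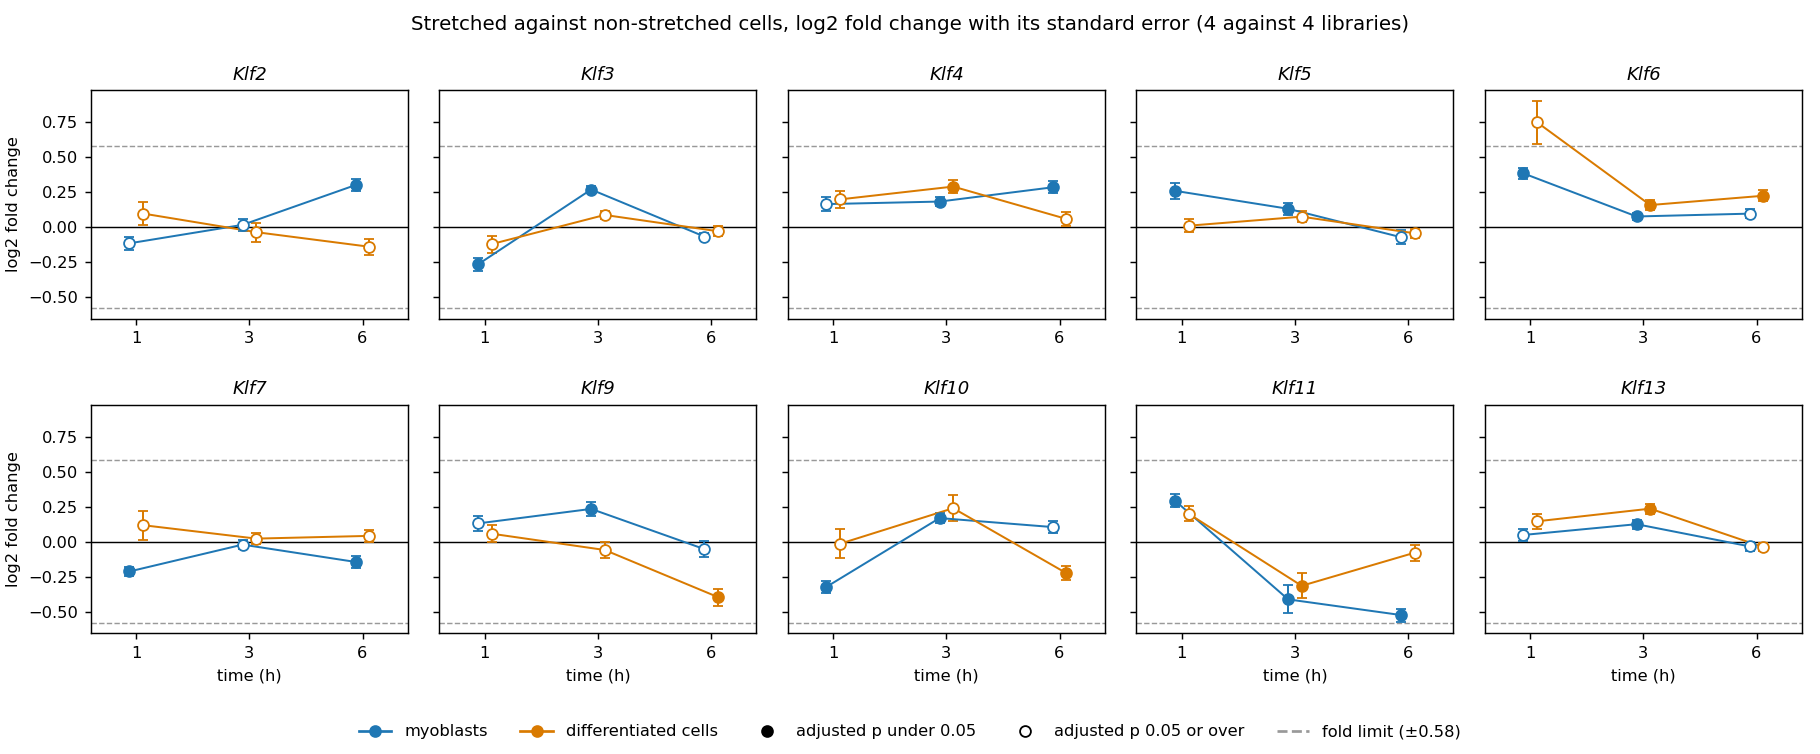
Log2 fold change of stretched over non-stretched cells with its standard error (edgeR, 4 against 4 libraries) at 1 h, 3 h and 6 h in myoblasts (blue) and differentiated cells (orange), filled where the adjusted p was under 0.05, with dashed lines at the fold limit of 0.58 in either direction. The 1 h point of Klf6 in differentiated cells is the one beyond the fold limit and is not filled, and Klf11 drops from 0.29 to -0.52 between 1 h and 6 h in myoblasts.

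The single B17 library, replicate 4 among stretched differentiated cells of the 1 h time, was high for several members. Besides Klf6, it held the highest stretched value of Klf7 (65.2 CPM, the others 44.5 to 53.0), Klf10 (106 CPM, the others 72.4 to 79.9), Klf11 (30.9 CPM) and Klf13 (172 CPM, the others 145 to 153), and the lowest of Klf3 (164 CPM), Klf4 (161 CPM) and Klf5 (178 CPM). Its 5 proliferating cell markers summed to 693 CPM, against 358 to 407 CPM in the other stretched libraries and 325 to 460 CPM in the non-stretched ones, while its muscle differentiation markers (10115 CPM) lay within the range of the others. The part of these in the members' values was not tested. Without replicate 4, Klf6 alone passed the adjusted p-value at 1 h, where 1.12% of all genes did and 0.663% with it. The log2 fold change of Klf10 went from -0.01 to -0.15 and that of Klf7 from 0.12 to -0.00 (edgeR adjusted p = 0.24 and 1.00 without it).

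**Figure D4:**
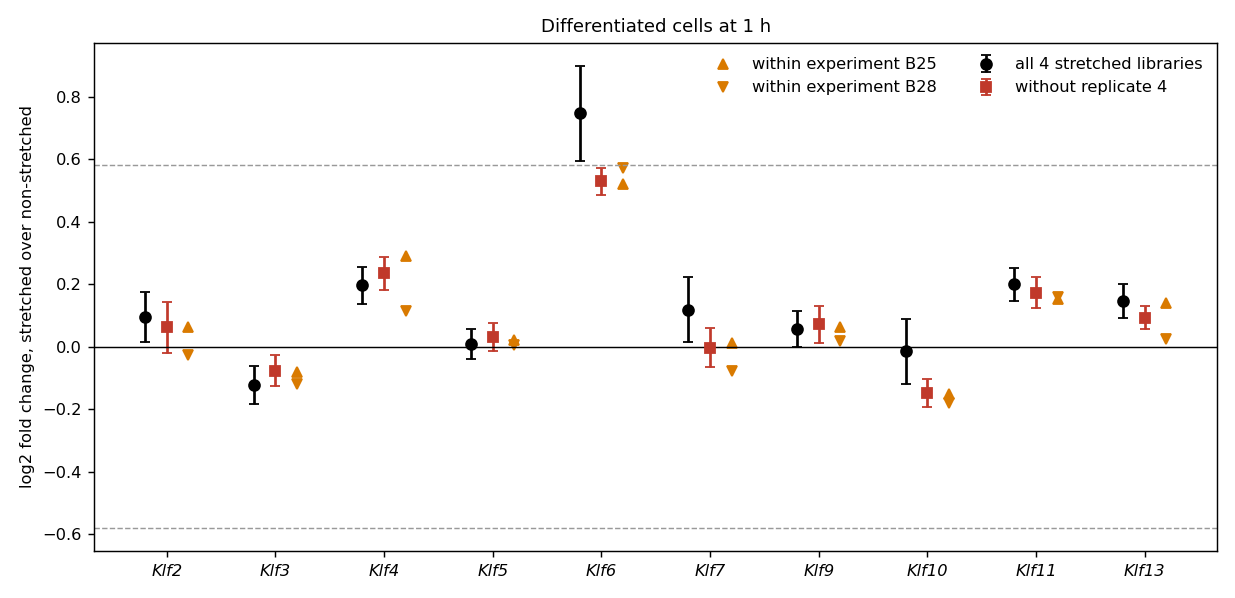
Log2 fold change of stretched over non-stretched differentiated cells at 1 h for each member, with its standard error, from all 4 stretched libraries (black) and without replicate 4 (red), beside the difference of mean log2 CPM within experiments B25 and B28 (orange, no error bars, 1 stretched library in B28). Klf6 is at 0.75 with replicate 4, 0.53 without it and 0.52 and 0.57 within the experiments, and every other member lies between -0.18 and 0.29.

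The change of the stretch effect with time was tested as an interaction over the 24 libraries of a stage. Both differences use the 1 h libraries, so they share samples. In myoblasts the effect at 3 h differed from that at 1 h for 5 of 10 members (10.9% of all genes). It was higher at 3 h for Klf3 (0.53, SE 0.05, edgeR adjusted p = 5.3e-08), Klf10 (0.48, SE 0.06, adjusted p = 4.5e-06) and Klf7 (0.19, SE 0.05, adjusted p = 0.014), and lower for Klf6 (-0.31, SE 0.05, adjusted p = 9.6e-05) and Klf11 (-0.71, SE 0.11, adjusted p = 8.6e-05), all on the log2 scale. At 6 h it differed from 1 h for 6 members (21.1% of all genes): higher for Klf10 (0.43), Klf2 (0.42) and Klf3 (0.20), and lower for Klf5 (-0.33), Klf6 (-0.29) and Klf11 (-0.82, SE 0.11, edgeR adjusted p = 8.7e-06). Klf11 was the only member past the fold limit too, at both times, where 1.42% and 3.17% of all genes were.

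In differentiated cells the effect at 3 h was lower than at 1 h for Klf6 (-0.59, SE 0.15, edgeR adjusted p = 0.020) and Klf11 (-0.52, SE 0.10, adjusted p = 0.0037), 2 of 10 members where 5.15% of all genes passed. Klf6 was also past the fold limit (0.848% of all genes), and without replicate 4 its difference was -0.38 (edgeR adjusted p = 2.8e-04), under that limit. It was also under that limit without non-stretched replicate 8 of 3 h, and without stretched replicate 9 of 3 h the count past both limits was 2. At 6 h the effect was lower than at 1 h for Klf6 (-0.53, and -0.31 without replicate 4, with edgeR adjusted p-values of 0.023 and 0.0011), Klf9 (-0.45, SE 0.09, edgeR adjusted p = 0.0025) and Klf13 (-0.19, adjusted p = 0.039), with 11.9% of all genes past the adjusted p-value and 2.5% past the fold limit, which no member passed (1 member did without stretched replicate 7 or 8 of 1 h). The Klf13 difference passed in 19 of 30 other settings. Its adjusted p lay between 0.0507 and 0.0847 (edgeR) without non-stretched replicate 7, 8 or 9 of either time, stretched replicate 4 of 1 h or stretched replicate 7, 8 or 9 of 6 h. In non-stretched cells, between 1 h and 6 h, Klf10 fell 1.17-fold in myoblasts (log2 -0.23, SE 0.04, edgeR adjusted p = 0.0035, where 1.88% of all genes passed). Klf11 had a larger log2 difference there (-0.27, SE 0.08) that did not pass (edgeR adjusted p = 0.066), but did in 3 of 30 other settings. No member passed in differentiated cells (0.0123% of all genes). There 0 members had an unadjusted p under 0.05 by edgeR (11% of all genes) and 0 passed by DESeq2 (1.15%).

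The stretch effect in differentiated cells was then compared with that in myoblasts at each time, over 16 libraries. At 6 h it was lower in differentiated cells for Klf2 (-0.45 on the log2 scale, SE 0.08, edgeR adjusted p = 0.0037), Klf9 (-0.35, SE 0.09, adjusted p = 0.030) and Klf10 (-0.34, SE 0.07, adjusted p = 0.013) and higher for Klf11 (0.44, SE 0.08, adjusted p = 0.0038), 4 of 10 members where 5.18% of all genes passed. Those of Klf2, Klf10 and Klf11 passed in all 22 other settings and that of Klf9 in 11 of them. The adjusted p of Klf9 was between 0.0529 and 0.0739 (edgeR) without 1 of these: in differentiated cells non-stretched replicates 7 and 8 and stretched replicates 7, 8 and 10, or in myoblasts non-stretched replicates 7, 9 and 10 and stretched replicates 7, 8 and 9. At 3 h Klf3 alone differed (-0.19, SE 0.04, edgeR adjusted p = 0.013), with 1.79% of all genes. At 1 h no member and 0% of all genes passed by edgeR, with 4 members at an unadjusted p under 0.05 (4.33% of all genes) and 0 by DESeq2 (0.0982%). The difference of Klf6 at 1 h was 0.36 (SE 0.17), and 0.14 without replicate 4 of the stretched differentiated cells, passing in neither fit. Stage is confounded with experiment, plating density and medium, and these cannot be told apart.

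Without stretching, the stages differed for 9 of 10 members, where 89.9% of all genes passed the adjusted p-value, over 12 libraries of each stage. These 12 libraries came from only 2 experiments, each sampled repeatedly, and the test had no term for experiment. Its p-values and standard errors therefore do not measure the spread over 12 independent experiments. With the fold limit, 5 members were higher in differentiated cells (27% of all genes): Klf9 (3.10-fold, log2 1.63, SE 0.04, edgeR adjusted p = 7.6e-25), Klf5 (2.82-fold, SE 0.03 on the log2 scale, adjusted p = 1.7e-24), Klf3 (1.74-fold), Klf4 (1.62-fold) and Klf10 (1.599-fold). Klf6 was lower (1.55-fold, log2 -0.64, SE 0.02, edgeR adjusted p = 1.6e-20), where 24.8% of all genes were. Klf11 (0.41) and Klf13 (0.10) were higher and Klf7 (-0.29) lower by less than the fold limit, and Klf2 did not pass (-0.04, SE 0.04, edgeR adjusted p = 0.34). The 12 non-stretched libraries of Klf9 lay between 10.6 and 13.1 CPM in myoblasts and between 31.2 and 39.5 CPM in differentiated cells, and those of Klf5 between 56.3 and 73.0 CPM and between 176 and 206 CPM, so neither overlapped.

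Levels of different members were compared per kilobase of annotated exon (CPM per kb). In non-stretched myoblasts Klf6 was highest at 78.1 ± 2.81 CPM per kb (SD, n = 12 libraries from 2 experiments), followed by Klf2 (32.4 ± 2.34) and Klf4 (29.4 ± 1.75), whose libraries overlapped. Klf13 (17.2 ± 0.715) stood above Klf5 (12.5 ± 0.922), Klf10 (11.97 ± 1.14) and Klf3 (9.93 ± 0.553). Of these, Klf5 and Klf10 overlapped, and the lowest library of Klf10 (10.57) was just under the highest of Klf3 (10.59). Klf7 (7.24 ± 0.327), Klf11 (4.06 ± 0.530) and Klf9 (2.38 ± 0.136) were lowest and did not overlap. In non-stretched differentiated cells Klf6 (51.4 ± 1.77) and Klf4 (48.8 ± 2.30) overlapped at the top, Klf5 (36.1 ± 1.52) and Klf2 (32.2 ± 2.796) overlapped after them, and Klf10 (19.5 ± 1.11), Klf13 (18.8 ± 0.487) and Klf3 (17.6 ± 0.540) overlapped as neighbors. Klf9 (7.56 ± 0.498), Klf7 (6.04 ± 0.253) and Klf11 (5.48 ± 0.487) were lowest, with Klf9 and Klf7 and Klf7 and Klf11 overlapping.

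Divided by the longest coding transcript instead, Klf3 and Klf5 moved most, since the union of their exons (11243 and 5201 bases) is far longer than that transcript (5221 and 3352 bases). Klf3 was then at 21.4 CPM per kb in myoblasts and 37.9 in differentiated cells, rank 4 in both, and Klf5 at 56.0 CPM per kb was first in differentiated cells, ahead of Klf6 at 53.4. Klf6, Klf2 and Klf4 kept the first 3 places in myoblasts and Klf7, Klf11 and Klf9 the last 3 by either length.

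**Figure D5:**
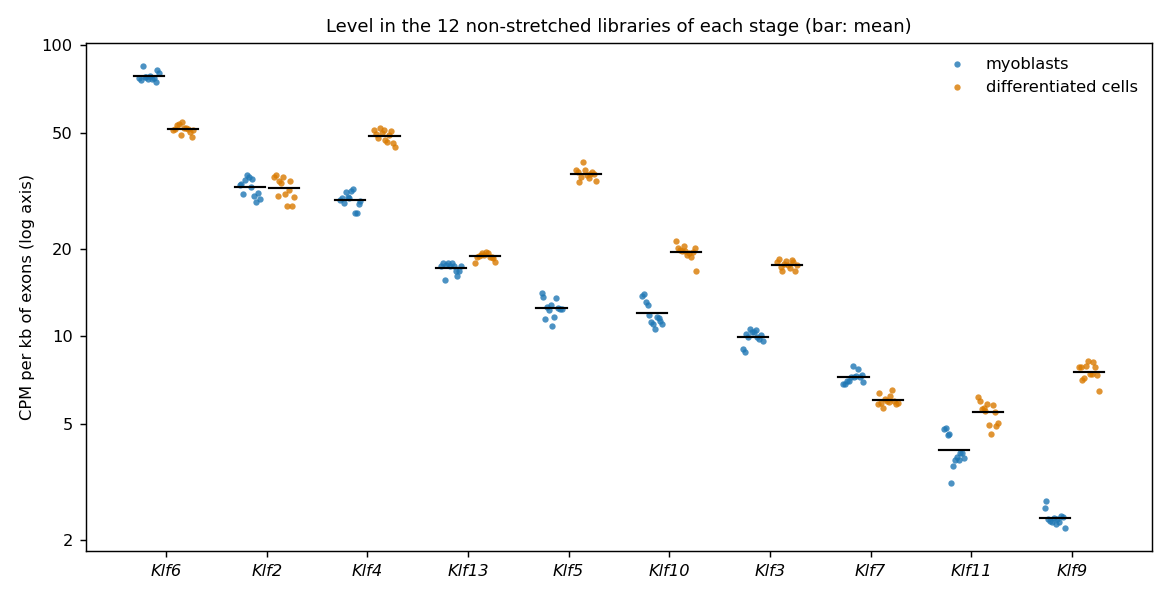
Level of each member in CPM per kb of exon union (log axis) in the 12 non-stretched libraries of myoblasts (blue) and of differentiated cells (orange), with bars at the means and genes in the order of their myoblast mean. Klf9 and Klf5 show the widest gap between stages, Klf6 and Klf7 are lower in differentiated cells, and Klf2 overlaps.

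Of 8 further Kruppel-like genes 7 were in the tables and between 3 and 5 passed the filter, and of 9 Sp genes, the related factors with like zinc fingers, 7 did. Among the further Kruppel-like genes 1 rose in myoblasts at 3 h (16% of all genes). In differentiated cells 1 rose at 3 h (10.8%) and 2 at 6 h (11.5%), and none passed at the other 3 comparisons. The only one past the fold limit was Klf15, a glucocorticoid-induced muscle metabolism factor, in differentiated cells at 6 h, at 0.329 ± 0.0693 against 0.174 ± 0.0338 CPM (SD, n = 4, log2 0.91, SE 0.25, edgeR adjusted p = 0.027). It rested on 13 to 24 against 8 to 13 counts, and without any 1 of replicates 7, 9 and 10 of either group the adjusted p was between 0.0531 and 0.0736 (edgeR). DESeq2 gave no adjusted p-value for Klf15, which passed both limits in 3 of 5 other settings. Among Sp genes 1 rose at 3 h in each stage (16% of all genes in myoblasts, 10.8% in differentiated cells). At 6 h 3 fell in myoblasts (13%) and 1 in differentiated cells (10.8%). Sp4 was past the fold limit, with 7.31 ± 0.466 against 11.2 ± 0.410 CPM in myoblasts at 6 h (SD, n = 4, 1.52-fold lower, log2 -0.60, SE 0.06, edgeR adjusted p = 8.0e-05). Without non-stretched replicate 10 or stretched replicate 9 the log2 fold change was -0.579 and -0.563, short of the limit.

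Genes upstream and beside the family were listed too. Of 12 genes of the ERK5 and MEF2 route, 11 were tested, and the numbers that rose and fell in myoblasts were 0 and 1 at 1 h, 4 and 2 at 3 h, and 1 and 1 at 6 h. In differentiated cells they were 0 and 0, 0 and 2, and 1 and 2. Of 12 co-factor and ubiquitin ligase genes that act on these proteins, all were tested, with 0 and 0, 3 and 1, and 3 and 3 in myoblasts and 0 and 0, 2 and 0, and 2 and 1 in differentiated cells. The shares of all genes that rose and fell in myoblasts were 1.67% and 4.24%, 16% and 15.8%, and 14.1% and 13%. In differentiated cells the shares were 0.193% and 0.47%, 10.8% and 11.4%, and 11.5% and 10.8%. None of the tested genes of the lists passed both limits in any of the 6 comparisons. The median log2 fold change of either list lay between -0.05 and 0.08 in the 6 comparisons.

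Of 14 genes known as targets of the family in other tissues, 13 or 14 were tested. In myoblasts 2 rose and 0 fell at 1 h (1.67% and 4.24% of all genes). At 3 h 5 rose and 1 fell (16% and 15.8%), and at 6 h 4 rose and 1 fell (14.1% and 13%). In differentiated cells the counts were 1 and 0 (0.193% and 0.47%), 2 and 2 (10.8% and 11.4%), and 0 and 3 (11.5% and 10.8%). Past the fold limit was Smad7, the inhibitory Smad that KLF10 and KLF11 are known to repress, in differentiated cells at 1 h. Its stretched libraries ranged from 28.6 to 52.5 CPM (median 29.8) and its non-stretched ones from 14.2 to 15.7 CPM (median 15.4), a 2.31-fold rise (log2 1.21, SE 0.18, edgeR adjusted p = 0.025). Replicate 4 was again the highest library, and without it the log2 fold change was 0.95 (edgeR adjusted p = 2.3e-05). Without any 1 of the 4 non-stretched libraries, or without stretched replicate 8, the adjusted p was between 0.0619 and 0.112. Below the fold limit, Smad7 also rose in differentiated cells at 3 h (log2 0.40, edgeR adjusted p = 0.0030). In myoblasts it rose at 1 h, 3 h and 6 h (log2 0.47, 0.53 and 0.24, edgeR adjusted p = 7.4e-04, 1.9e-05 and 0.012).

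Plau, the urokinase gene, rose 1.67-fold in differentiated cells at 3 h (247 ± 20.8 against 148 ± 8.58 CPM, SD, n = 4, log2 0.74, SE 0.06, edgeR adjusted p = 7.3e-05) and passed both limits in each fit without 1 library. Nos3, the endothelial nitric oxide synthase gene, is hardly expressed in these cells, at 0.396 ± 0.0395 against 0.613 ± 0.0616 CPM (SD, n = 4) in stretched and non-stretched differentiated cells at 6 h, or 21 to 25 and 31 to 42 counts. It fell (log2 -0.63, SE 0.17, edgeR adjusted p = 0.023), a call not made by DESeq2 (adjusted p = 0.051). Leaving out 1 of non-stretched replicates 7, 9 and 10 or of stretched replicates 7, 8 and 10 put its adjusted p between 0.0502 and 0.0663 (edgeR). Markers of the stages moved in some comparisons as well: Myog, the myogenic factor, fell in myoblasts at 3 h (1.34 ± 0.0757 against 2.35 ± 0.906 CPM, SD, n = 4, log2 -0.82, SE 0.23, edgeR adjusted p = 0.017), a call lost when non-stretched replicate 9 or 10 was left out (adjusted p = 0.0507 and 0.0656). Myog also fell in myoblasts at 6 h (log2 -0.54, SE 0.17, edgeR adjusted p = 0.036). Of 4 muscle markers tested in myoblasts it alone passed at 3 h and at 6 h, where 15.8% and 13% of all genes fell. Of 5 proliferating cell markers 1 rose and 1 fell in myoblasts at 3 h (16% and 15.8% of all genes). At 6 h 3 fell there (13%), and 3 rose in differentiated cells at 3 h (10.8%). The part of these in the members' changes was not tested.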

How the data were processed

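Libraries were made with a stranded mRNA kit, and the submitters' processing notes name STAR, Salmon, DESeq2 and mm10. The authors deposited a table for each stage with whole-number counts per gene symbol and library, without normalization. Where transcripts share sequence, Salmon apportions the reads, so counts of similar genes are estimates. All 48 columns were used. One stretched myoblast library (1 h, replicate 9) carries the experiment code B231 and was taken as B31.

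The filter was filterByExpr and the scaling TMM, and comparisons used the quasi-likelihood test of edgeR 4.0.16 (limma 3.58.1, R 4.3.3), two-sided, with Benjamini-Hochberg adjustment over all genes tested and a limit of 0.05. Stretched and non-stretched cells were fitted on the 8 libraries of a time and stage, changes with time on 24, stage by stretch on 16 and non-stretched stages on 24. The standard error is the log2 fold change divided by the root of F. CPM use TMM over all 48 libraries, and log2 CPM a prior count of 1. The fit of myoblasts at 1 h was tested on simulated data without an effect of experiment, and the other fits were not.

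The members and gene lists were chosen with earlier results of these data known. All 10 members are reported in every comparison of stretched with non-stretched cells and in that of the non-stretched stages. In the tests between times and of the stretch effect between stages, mainly the members that passed are named. From the other lists, genes are named where they passed both limits in a comparison of stretched with non-stretched cells, at most 4 a comparison, and the rest are counted. Alternatives were DESeq2 1.42.0, RLE normalization, no filter, at least 10 counts in every library, no fold limit, a covariate for experiment, a block for replicate number, all 24 libraries of a stage, glmTreat and leaving out each library. The longest coding transcript as length was added after seeing the data. Libraries held 48447318 to 77080730 counts, and members lay between 9.42 and 546 CPM. The lowest chi-square per gene between libraries of a group was 2.98, so none was a copy. Splicing was not analysed here.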

Additional observations from a re-analysis of the deposited data

Results flagged for a closer look

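Several values stood apart in their group of 4. For these, the gap of the highest or lowest library to its nearest neighbor, divided by the range of the group, was above Dixon's critical value, and chance gives such a gap in about 1 of 20 groups. Among 120 groups of a member this happened in 9. Klf6 had 3 of them, at 0.859 in non-stretched myoblasts at 1 h (replicate 9), 0.867 in stretched differentiated cells at 1 h (replicate 4) and 0.842 in stretched differentiated cells at 3 h (replicate 10). Klf7 had 4, at 0.909 in stretched myoblasts at 1 h (replicate 8), 0.878 in non-stretched myoblasts at 3 h (replicate 8), 0.831 in non-stretched differentiated cells at 6 h (replicate 7) and 0.926 in stretched differentiated cells at 6 h (replicate 9). Klf2 had 1 at 0.935 in stretched myoblasts at 1 h (replicate 8) and Klf5 had 1 at 0.894 in non-stretched myoblasts at 6 h (replicate 7).

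In 3 of 40 tests between times, the stretch effect of a member differed past both the adjusted p-value and the fold limit. These were Klf11 in myoblasts at 3 h against 1 h (log2 -0.71) and at 6 h against 1 h (log2 -0.82), and Klf6 in differentiated cells at 3 h against 1 h (log2 -0.59).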

How the results depend on the processing

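Of 56 comparisons in which a member passed the adjusted p-value, 11 lost it in at least 1 alternative (53 values lost, 1203 kept), and of 104 that did not pass, 19 gained it in at least 1 (47 values gained, 2347 not). Where the adjusted p-value was passed, either in the reported fit or in an alternative, none changed direction. Without the fold limit the count of members went from 0 to 6, 8 and 4 in myoblasts at 1 h, 3 h and 6 h, to 4 and 3 in differentiated cells at 3 h and 6 h, to 1 in non-stretched myoblasts over time, to 3 for the effect at 6 h against 1 h in differentiated cells, and to 1 and 4 for differentiated cells against myoblasts at 3 h and 6 h. From 1 it went to 5 and 6 for 3 h and 6 h against 1 h in myoblasts and to 2 for 3 h against 1 h in differentiated cells. In differentiated cells at 1 h it went from 0 to 1 (Klf6) with DESeq2, without a filter and with all 24 libraries. For 3 h against 1 h in differentiated cells, 1 became 0 with the experiment as a covariate and 0 with the replicate block. Leaving out 1 library gave between 0 and 2 there (0 without stretched replicate 4 of 1 h or non-stretched replicate 8 of 3 h, 2 without stretched replicate 9 of 3 h) and between 0 and 1 for 6 h against 1 h (1 without stretched replicate 7 or 8 of 1 h). The cause was not tested. The replicate numbers were not taken as pairs: of 23 correlations between samples of a number, between -0.11 and 0.37, 10 were over 0.1, and 11 were highest for their own number. The replicate block lost 3 of 56 calls on the adjusted p-value (Klf6 in myoblasts at 3 h, 0.0543, Klf11 in differentiated cells at 3 h, 0.0560, and Klf3 between stages at 3 h, 0.0542) and gained 3. Depth limits Klf15 and Nos3, with 8 to 42 counts in the comparisons named.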
